A study of Drosophila melanogaster with 16 samples.

Results

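The genes described here are those of the JNK stress kinase pathway, the AP-1 transcription factors it acts on, and the stress-induced gene Gadd45, in 2 Drosophila cell lines after a short exposure to EDTA. They were chosen by name, with earlier results of these data known: kay, Jra, puc, bsk, hep, Gadd45, egr, msn, slpr and Atf3. Counts of called members or listed genes beside the share of all features are thus descriptions and no test of enrichment. Of these 10 genes, 9 had a probe assigned to them alone in the platform annotation, out of 11980 named genes on the array, and all 9 were among the 8841 named genes tested. Jra, the Drosophila Jun gene, was annotated only on a probe shared with 14-3-3zeta, a gene near it on the chromosome, so no value is given for Jra.

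In DmD8, a line derived from imaginal discs, RNA from cells exposed for 30 minutes to 2 mM EDTA in PBS was set against a comparison RNA on 5 two-colour arrays. EDTA takes up divalent metal ions and was used to activate the receptor Notch. In the Kc line, an embryonic line with features of blood cells, RNA from cells given the same exposure was set against RNA from control cells on 6 arrays. Controls received PBS alone, per the labels. In a further DmD8 experiment the comparison cells, by their labels, had been kept with DFK-167, which blocks the protease that releases active Notch, at 300 µM overnight before EDTA. The 5 columns of this experiment repeat the values of the other DmD8 columns, with 24 of 71019 paired values apart, by at most 4.87e-08. They were counted once, and whether the comparison RNA in DmD8 came from control or from inhibitor-treated cells is not settled. The Kc arrays hold every effect of EDTA, not only that on Notch, and so do the DmD8 arrays if the comparison RNA was from control cells. Each line is 1 cell line, and the ratios do not show levels, so the lines could not be checked against marker genes. In such bulk RNA, fewer cells that express a gene and less of its RNA per cell cannot be told apart.

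The JNK pathway is a chain of kinases that answers stress, wounding and signals from the tumour necrosis factor family. In Drosophila the ligand Eiger, encoded by egr, acts through its receptors on Basket, the only Drosophila JNK. Misshapen, Slipper and Hemipterous are kinases that stand above Basket in the pathway, though not all of them on every route to it. Basket phosphorylates Jun, which binds DNA with the Fos protein Kayak as AP-1. AP-1 switches on puc, whose product is a phosphatase that turns Basket off again. Transcripts of Fos and of Atf3 are known to change within minutes of a stimulus in many animal cells.

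Each array gave a value for 13353 to 15638 of 17258 probes. Values are log ratios, taken as base 2, and a positive value means higher in activated cells. That direction is likely and not stated: arrays 4 and above carried the dyes swapped, and the swaps were taken as already turned by the authors. Over 10060 features, the mean correlation of 2 arrays of a line was 0.535 in DmD8 and 0.615 in Kc within a dye orientation, and -0.0336 and 0.00999 across orientations. As a guide, 7 known Notch targets of the E(spl) complex had median log ratios of 1.24 in DmD8 and 1.21 in Kc. They served in part to choose the sign. Errors after ± are standard errors of a limma fit over both lines unless an SD is named, adjusted p values are Benjamini-Hochberg values over all 12952 features tested, and the threshold was 0.05. Each experiment had 3 biological replicates per the labels, so some arrays repeat an RNA and p values over arrays are too small. For this reason every call was repeated with the swaps averaged into the replicates in each of the 36 possible assignments. Leaving out 1 array can leave another array of the same RNA, so it does not test the loss of a replicate.

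Across the group, kay and Gadd45 were lower in activated DmD8 cells and no member was higher. In Kc cells kay, Gadd45, puc, Atf3 and egr were higher and no member was lower. The upstream kinases msn, slpr, hep and bsk did not pass the threshold in either line. In DmD8 this was 2 of 9 members lower, where 4.16% of all features were called lower, and 0 of 9 higher with limma, where 3.08% were. At an unadjusted p under 0.05 there were likewise 2 of 9 members in DmD8, kay and Gadd45, where 19.7% of all features were. In either direction, 7.24% of all features passed in DmD8 and 11.9% in Kc. In Kc 5 of 9 members were higher, where 7.1% of all features were, and 0 of 9 lower, where 4.81% were. At an unadjusted p under 0.05 there were 7 of 9 in Kc, where 24.6% of all features were. The median log ratio of the 9 members was 0.05 in DmD8 and 0.31 in Kc, beside -0.04 and 0.01 over all features tested. In all 36 assignments of the swaps, 2 of 9 members passed in DmD8 (kay and Gadd45) and 2 of 9 in Kc (puc and Atf3), beside 1.33% and 1.51% of all features.

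**Figure D1:**
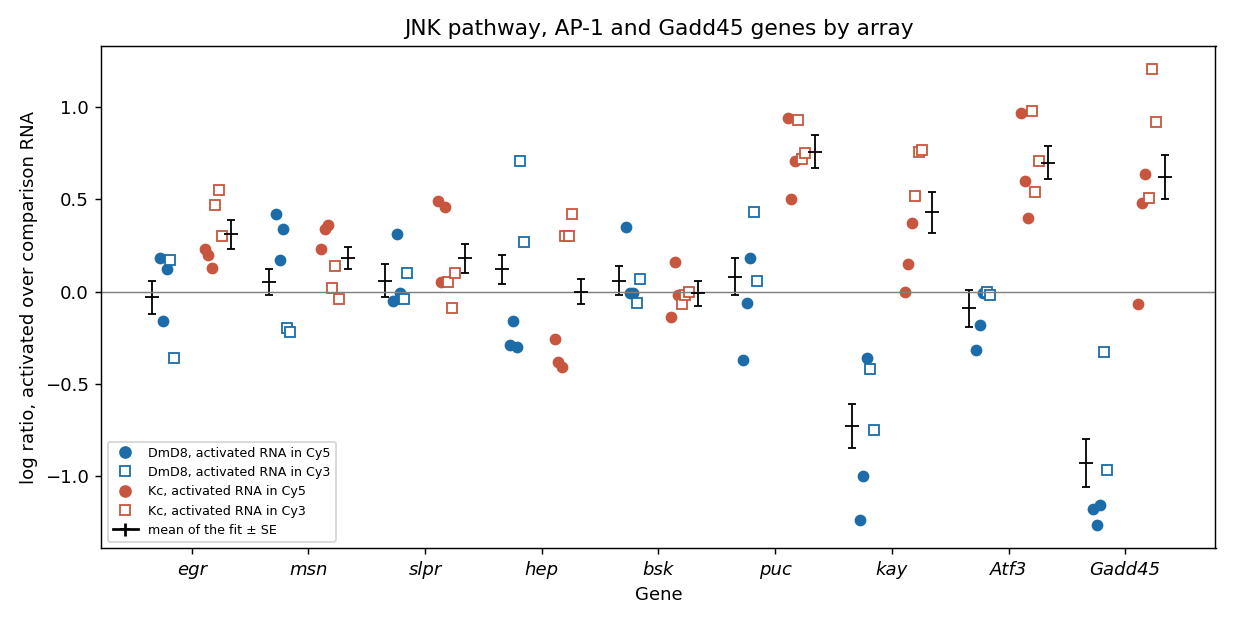
Log ratio of each of the 9 genes on each array (vertical axis, activated over comparison RNA), with DmD8 arrays left of Kc arrays for each gene on the horizontal axis. Filled circles are arrays with activated RNA in Cy5, open squares are dye swaps, and black bars are the means of the fit ± SE. For kay, Gadd45, puc and Atf3 all DmD8 arrays lie below all Kc arrays, and hep separates by dye.

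The ligand and the kinases come first in the pathway. For egr, the DmD8 log ratios were 0.18, -0.16 and 0.12 where Cy5 marked the activated RNA, and 0.17 and -0.36 on the swaps. On the Kc arrays egr ranged from 0.13 to 0.55 with a median of 0.26. It was thus above 0 on 6 of 6 Kc arrays, while the DmD8 arrays lay on both sides of 0. The fit gave -0.03 ± 0.09 in DmD8 (adjusted p = 0.896) and 0.31 ± 0.08 in Kc (adjusted p = 0.028). The Kc rise of egr was lost without Kc array 1, 2, 3, 4 or 5 (highest adjusted p = 0.1), with each array centred on its median (adjusted p = 0.0522) and in all 36 assignments of the swaps (adjusted p between 0.0609 and 0.244). The difference between the lines was -0.34 ± 0.12 (adjusted p = 0.104), and among the alternatives run it passed only without DmD8 array 4 (-0.47, adjusted p = 0.048).

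The gene msn encodes a kinase that stands above the cascade and links it to upstream signals. Its DmD8 log ratios were 0.42, 0.17 and 0.34 with activated RNA in Cy5 and -0.20 and -0.22 on the swaps. In Kc they ranged from -0.04 to 0.36 with a median of 0.19. The sign in DmD8 followed the dye. The fit, which removes a dye term in each line, gave 0.05 ± 0.07 in DmD8 (adjusted p = 0.718) and 0.18 ± 0.06 in Kc (adjusted p = 0.0991).

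The MAP kinase kinase kinase slpr stood between -0.05 and 0.31 in DmD8 and between -0.09 and 0.49 in Kc, with mean log ratios of 0.06 ± 0.09 and 0.18 ± 0.08 (adjusted p = 0.746 and 0.192). The JNK gene bsk stood between -0.06 and 0.35 in DmD8 and between -0.14 and 0.16 in Kc, at 0.06 ± 0.08 and -0.01 ± 0.07 (adjusted p = 0.735 and 0.947). For bsk the value of 0.35 on DmD8 array 1 was the only one above 0.16 in either line. The difference between the lines did not pass for either gene, at -0.12 ± 0.12 for slpr and 0.07 ± 0.11 for bsk (adjusted p = 0.562 and 0.716).

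The MAP kinase kinase gene hep followed the dye in both lines. Its log ratios in DmD8 were -0.29, -0.16 and -0.30 with activated RNA in Cy5, and 0.71 and 0.27 on the swaps. In Kc they were -0.26, -0.38 and -0.41 with activated RNA in Cy5, and 0.30, 0.30 and 0.42 on the swaps. All 6 arrays of the first orientation were below 0 and all 5 swaps above 0, a pattern that 6.6% of all features showed. Both probes of hep gave it. Averaged over the dyes, hep stood at 0.12 ± 0.08 in DmD8 and -0.00 ± 0.07 in Kc (adjusted p = 0.434 and 0.982). Its dye term was -0.37 ± 0.08 in DmD8 and -0.35 ± 0.07 in Kc (adjusted p = 0.0139 and 0.00996). The dye term passed the threshold for hep and msn in DmD8 (0.26 ± 0.07 for msn, adjusted p = 0.0301) and for hep alone in Kc, that is 2 of 9 and 1 of 9 members, beside 17.1% and 20% of all features. If the swaps had in fact not been turned, the dye term would be the response. In activated cells hep would then be lower in both lines and msn higher in DmD8. None of kay, Gadd45, puc, Atf3 and egr would pass in either line.

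At the lower end of the pathway, kay encodes the Fos subunit of AP-1. Its log ratios in DmD8 were -1.24, -1.0 and -0.36 with activated RNA in Cy5, and -0.42 and -0.75 on the swaps. In Kc kay ranged from 0.00 to 0.77 with a median of 0.44. All 5 DmD8 arrays were thus below 0 in either dye orientation, and every Kc array lay above them. The fit gave -0.73 ± 0.12 in DmD8 (adjusted p = 0.00331) and 0.43 ± 0.11 in Kc (adjusted p = 0.0225). In DmD8 kay was the 98th lowest of 12952 features.

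The 2 calls for kay were not equally firm. In DmD8 the fall remained past the threshold without any 1 array (highest adjusted p = 0.0441) and in all 36 assignments of the swaps (highest adjusted p = 0.0416). It also passed in each dye orientation alone, at -0.86 with activated RNA in Cy5 and -0.59 on the swaps (adjusted p = 0.0284 and 0.0391). In Kc the rise was lost without array 3, 5 or 6 (adjusted p up to 0.0733) and in all 36 assignments (adjusted p between 0.0529 and 0.229). Within Kc, kay averaged 0.17 ± 0.19 (SD, n = 3) with activated RNA in Cy5 and 0.68 ± 0.15 (SD, n = 3) on the swaps, and with Cy5 alone the call was lost (adjusted p = 0.489). The platform annotation does not say which of the transcripts of kay its probe detects.

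Gadd45 encodes a small stress-induced protein that, in mammals, binds a kinase upstream of JNK and p38. In DmD8 its log ratios were -1.18, -1.27 and -1.16 with activated RNA in Cy5, and -0.33 and -0.97 on the swaps. In Kc it ranged from -0.07 to 1.21 with a median of 0.57. The lowest Kc array, at -0.07, was above the highest DmD8 array, at -0.33. Gadd45 was below 0 on 5 of 5 DmD8 arrays and above 0 on 5 of 6 Kc arrays.

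The fit gave Gadd45 -0.93 ± 0.13 in DmD8 (adjusted p = 0.00144) and 0.62 ± 0.12 in Kc (adjusted p = 0.00581). These were the 53rd lowest of 12952 features in DmD8 and the 194th highest in Kc. The fall in DmD8 remained past the threshold without any 1 array (highest adjusted p = 0.0213) and in all 36 assignments. The rise in Kc remained so without any 1 array (highest adjusted p = 0.0274) and in 24 of 36 assignments (highest adjusted p = 0.0842). On the swaps alone the DmD8 mean was -0.65 and the call was lost (adjusted p = 0.081). With activated RNA in Cy5 alone the Kc mean was 0.35 and that call was lost (adjusted p = 0.114).

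The phosphatase gene puc is the best known AP-1 target and is used as a reporter of JNK activity. Its log ratios in DmD8 were -0.37, -0.06 and 0.18 with activated RNA in Cy5, and 0.43 and 0.06 on the swaps. In Kc it ranged from 0.50 to 0.94 with a median of 0.74. Every Kc array was thus above every DmD8 array, and the DmD8 arrays lay on both sides of 0. The fit gave 0.08 ± 0.10 in DmD8 (adjusted p = 0.69) and 0.76 ± 0.09 in Kc (adjusted p = 0.000295), the 103rd highest of 12952 features. Within Kc the mean was 0.72 ± 0.22 with activated RNA in Cy5 and 0.80 ± 0.12 on the swaps (SD, n = 3 each). The rise in Kc remained past the threshold in all 36 assignments (highest adjusted p = 0.0322).

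Atf3 encodes a bZIP factor that can pair with Jun. Its log ratios in DmD8 were -0.32, -0.18 and -0.01 with activated RNA in Cy5, and -0.00 and -0.02 on the swaps. In Kc it ranged from 0.40 to 0.98 with a median of 0.66. The DmD8 arrays were at or slightly below 0, and every Kc array was above them. The fit gave -0.09 ± 0.10 in DmD8 (adjusted p = 0.637) and 0.70 ± 0.09 in Kc (adjusted p = 0.000406), the 126th highest of 12952 features. Like puc, Atf3 differed little between the dyes in Kc, with 0.66 ± 0.29 in Cy5 and 0.74 ± 0.22 on the swaps (SD, n = 3 each). Its rise there also remained in all 36 assignments (highest adjusted p = 0.0261).

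Kc arrays 2 and 5 stood apart in heat shock genes. The median log ratio of 10 heat shock genes was 0.78 and 0.80 on these arrays and between -0.01 and 0.04 on the other 4 Kc arrays. On Kc arrays 2 and 5, kay stood at 0.15 and 0.76, Gadd45 at 0.48 and 1.21, puc at 0.50 and 0.72, Atf3 at 0.60 and 0.54 and egr at 0.20 and 0.55. Without both arrays, puc (0.84, adjusted p = 0.00234) and Atf3 (0.77, adjusted p = 0.00345) were still called higher in Kc. Calls lost were those of kay (0.42, adjusted p = 0.104), Gadd45 (0.50, adjusted p = 0.0556) and egr (0.28, adjusted p = 0.15). The fit without these arrays rests on 4 Kc arrays. Hsp26 stood at 1.90 on array 2 and 1.92 on array 5, and between -0.27 and 0.14 on the others. If arrays 2 and 5, of opposite dye orientation, repeat 1 RNA, the heat shock shift is that of 1 biological replicate. The reduced fit then rests on fewer than the 3 replicates. The labels do not settle this. In DmD8 the medians of the heat shock genes lay between -0.34 and -0.06, and 2 of 10 were lower, where 4.16% of all features were. The 2 were Hsc70-3 (-1.02 ± 0.08, adjusted p = 3.02e-05) and DnaJ-1 (-0.34 ± 0.09, adjusted p = 0.0452). The DnaJ-1 call was lost in at least 1 assignment of the swaps (highest adjusted p = 0.334). None of the tested Hsp26, Hsp27, Hsp68 and Hsp70 genes passed in DmD8. In Kc 0 of 10 passed with limma and 5 had an unadjusted p under 0.05, where 24.6% of all features did. Whether these shifts bear on the members in DmD8 was not tested.

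The difference between the lines was then tested itself, as the DmD8 log ratio minus the Kc log ratio. It was -1.54 ± 0.18 for Gadd45, -1.15 ± 0.16 for kay, -0.79 ± 0.13 for Atf3 and -0.68 ± 0.13 for puc (adjusted p = 0.000312, 0.00119, 0.00324 and 0.00853). Thus 4 of 9 members were lower in DmD8 than in Kc, where 6.51% of all features were, and 0 of 9 were higher with limma, where 4.42% were. In either direction 10.9% of all features passed. At an unadjusted p under 0.05 there were 5 of 9 members, with egr the fifth, where 24.9% of all features were. These 4 were also the members for which every DmD8 array lay below every Kc array, a pattern found in 4.11% of all features. Since the comparison RNA may differ between the lines, the cells and the comparison RNA cannot be told apart as the source of a difference.

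Gadd45 was the 26th lowest of 12952 features in this difference and kay the 80th. Both were past the threshold in all 36 assignments (highest adjusted p = 0.012 for Gadd45 and 0.0332 for kay), beside 1.04% of all features, while Atf3 was in 33 and puc in 21 of them (highest adjusted p = 0.0602 and 0.0924). All 4 differences remained without any 1 array and without Kc arrays 2 and 5. In one dye orientation alone fewer passed: Gadd45 with activated RNA in Cy5, and Gadd45 and kay on the swaps. When the sign of the swaps was turned, none of the 4 passed and the difference for kay was 0.12 (adjusted p = 0.935).

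**Figure D2:**
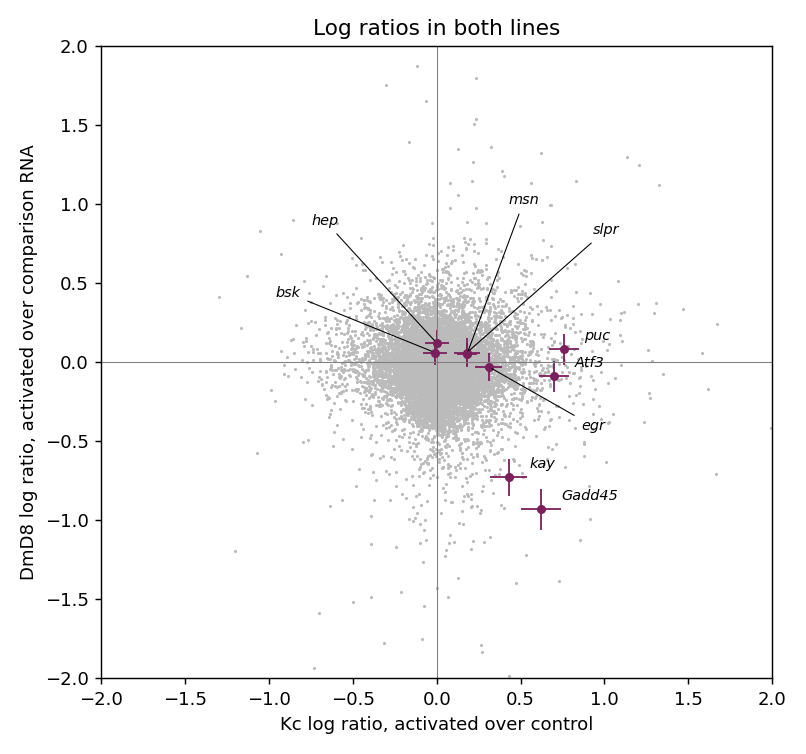
Mean log ratio in Kc (horizontal axis) against mean log ratio in DmD8 (vertical axis) for all 12952 features in grey, with the 9 genes and their standard errors in purple; 13 features beyond 2 on either axis are not drawn. Gadd45 and kay lie in the lower right, lower in activated DmD8 and higher in activated Kc cells, while puc and Atf3 lie to the right near 0 in DmD8.

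Gadd45 and kay were both called lower in DmD8 and higher in Kc, that is 2 of 9 members, a combination found in 0.633% of all features (82 of 12952). Neither gene kept its Kc call in all 36 assignments of the swaps. The genes whose log ratios ran most like theirs were sought over the 11 arrays, after the dye term of each line was removed, among 6378 other named genes with a value on every array. For kay they were c11.1, alphaCOP and Ntan1 (Pearson r = 0.983, 0.978 and 0.978), and for Gadd45 olf186-M, bor and Pli (r = 0.985, 0.984 and 0.983). For puc they were Fkbp14, Rpt4 and sage (r = 0.964, 0.961 and 0.958). A high r did not require the fall and the rise. In DmD8 and Kc the log ratios were -1.01 and -0.14 for c11.1, -0.60 and -0.03 for alphaCOP, and -0.71 and 0.37 for Ntan1. They were -0.20 and 1.26 for olf186-M, -1.06 and -0.08 for bor, and -0.46 and 0.11 for Pli. For the genes like puc they were -0.21 and 0.25 for Fkbp14, -0.49 and 0.13 for Rpt4, and -1.11 and 0.31 for sage. The correlations are descriptions over 11 arrays that share 2 lines: 188 genes reached an r over 0.9 with kay, 204 with Gadd45 and 113 with puc. None of the 9 genes named in this way was a member or on the pathway lists below.

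Around the members, 4 lists of related genes were read. Of 35 other genes listed with the JNK cascade, 25 were tested. The list also holds Mkp3, better known from ERK signalling, so its counts do not speak for JNK alone. In DmD8 3 of the 25 genes were higher and 2 lower, where 3.08% and 4.16% of all features were. In Kc 4 were higher and 2 lower, where 7.1% and 4.81% of all features were. The list medians were -0.03 in DmD8 and 0.05 in Kc. In the difference grnd and Traf6 were higher and POSH, raw and hppy lower, where 4.42% of all features were higher and 6.51% lower. The difference call was lost without any 1 of 9 arrays for hppy (adjusted p = 0.0435). For Traf6 (adjusted p = 0.0272) it was lost without any 1 of 7 arrays, and for grnd (adjusted p = 0.0179) without DmD8 array 4. For POSH and raw it remained without any 1 array. The receptor gene grnd, whose product binds Eiger, stood at 0.58 ± 0.14 in DmD8 (adjusted p = 0.0377) on 3 arrays, at -0.20, 1.41 and 1.29, of which the first had activated RNA in Cy5. It stood at -0.20 ± 0.09 in Kc, and the DmD8 call was lost without DmD8 array 4 or 5 or Kc array 1 or 5. The adaptor gene Traf4 was higher in DmD8 (0.75 ± 0.15, adjusted p = 0.0088), a call lost without DmD8 array 4, and Traf6 was lower in Kc (-0.65 ± 0.07, adjusted p = 0.000169), on 6 of 6 arrays. The scaffold gene POSH was lower in DmD8 (-0.57 ± 0.10, adjusted p = 0.00349), a call lost without DmD8 array 4 (adjusted p = 0.0531).

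The gene raw, whose product holds back JNK signalling in the embryo, changed in the directions of kay and Gadd45. It was lower in DmD8 (-0.55 ± 0.09, adjusted p = 0.00331) and higher in Kc (0.68 ± 0.08, adjusted p = 0.000301), with a difference of -1.23 ± 0.12 (adjusted p = 0.000136). Its values were below 0 on 5 of 5 DmD8 arrays and above 0 on 6 of 6 Kc arrays. The size followed the dye: the DmD8 call was lost with activated RNA in Cy5 alone (-0.22, adjusted p = 0.219), and the Kc call on the swaps alone (0.32, adjusted p = 0.145). The DmD8 call was also lost without DmD8 array 4 (adjusted p = 0.0509) and in at least 1 assignment of the swaps (highest adjusted p = 0.2). The difference passed in each orientation alone, at -1.27 with Cy5 and -1.20 on the swaps (adjusted p = 0.0127 and 0.0318). The MAP kinase kinase kinase gene wnd was higher in Kc (0.77 ± 0.10, adjusted p = 0.000407), at 1.54, 1.04 and 1.08 with activated RNA in Cy5 and 0.51, 0.45 and 0.02 on the swaps. That call was lost on the swaps alone (0.33, adjusted p = 0.174) and without a dye term (adjusted p = 0.0613). Mkp3, a phosphatase gene best known for its action on ERK, was higher in both lines, by 0.64 ± 0.09 in DmD8 and 0.63 ± 0.08 in Kc (adjusted p = 0.000949 and 0.000367), on all 11 arrays and in all 36 assignments. The kinase gene hppy (0.30 ± 0.09) was higher and the adaptor gene imd (-0.25 ± 0.07) lower in Kc (adjusted p = 0.0391 and 0.0322), and both calls were lost without any of several single arrays (adjusted p up to 0.141 and 0.1). The 20 cascade genes not called in DmD8 lay between -0.23 and 0.30, and the 19 not called in Kc between -0.23 and 0.29.

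Of 8 genes of the p38 branch, a sister stress kinase pathway, 4 were tested. Mekk1, a kinase upstream of p38, was lower in DmD8 (-0.58 ± 0.10, adjusted p = 0.00337) and higher in Kc (0.34 ± 0.09, adjusted p = 0.0247). The difference was -0.92 ± 0.13 (adjusted p = 0.00127). Its DmD8 values were -0.19, -0.25 and 0.10 with activated RNA in Cy5, and -0.95 and -1.17 on the swaps, so the fall rested mainly on the swaps. The Kc rise was lost without Kc array 1, 2, 4 or 5 (adjusted p up to 0.103), and the DmD8 fall in at least 1 assignment (highest adjusted p = 0.373). The other 3 genes, p38a, lic and Atf-2, stood between -0.17 and -0.06 in DmD8 and between -0.12 and 0.12 in Kc.

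Among 21 tested of 32 reported JNK or AP-1 targets and stress response genes, 5 were lower and 0 higher in DmD8 with limma, and 2 were higher and 1 lower in Kc. The background was 4.16% of all features called lower and 3.08% higher in DmD8, and 7.1% higher and 4.81% lower in Kc. In DmD8 10 of the 21 had an unadjusted p under 0.05, where 19.7% of all features did. The list medians were -0.09 and 0.08. The 16 genes not called in DmD8 lay between -0.43 and 0.37, and the 18 not called in Kc between -0.17 and 0.48. The list holds both targets and stress response genes, so its counts do not speak for JNK targets alone. Of the genes lower in DmD8, GstD1 and Keap1 are best known from the response to oxidants. The glutathione transferase gene GstD1 stood at -0.87 ± 0.09 (adjusted p = 0.000173), on 5 of 5 arrays between -1.15 and -0.56. Keap1, which holds back the antioxidant factor Cnc, stood at -0.62 ± 0.10 (adjusted p = 0.00308), and Duox, an oxidase that makes hydrogen peroxide, at -0.88 ± 0.09 (adjusted p = 0.000192). For Duox the values were -0.39, -0.38 and -0.13 with activated RNA in Cy5, and -1.30 and -1.63 on the swaps, and the call was lost in at least 1 assignment (highest adjusted p = 0.116).

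Keap1 was higher in Kc (0.66 ± 0.09, adjusted p = 0.000723), above 0 on 6 of 6 arrays, and the difference between the lines was -1.28 ± 0.13 (adjusted p = 0.000199). GstD1 (0.05 ± 0.08) and Duox (0.09 ± 0.08) did not pass in Kc. The ETS factor gene Ets21C, a reported JNK target, was lower in DmD8 (-0.52 ± 0.13, adjusted p = 0.038), a call lost without DmD8 array 1, 2, 4 or 5 or Kc array 1. ImpL2, which encodes a secreted inhibitor of insulin signalling, was lower in DmD8 (-0.51 ± 0.11, adjusted p = 0.0202), a call lost without DmD8 array 1, 2, 4 or 5. Its 3 probes disagreed: in DmD8 they stood at 0.16 ± 0.16, -0.92 ± 0.09 and -0.76 ± 0.10. In Kc the same probes stood at 0.06 ± 0.14, 0.48 ± 0.08 and 0.41 ± 0.09 (adjusted p = 0.884, 0.00305 and 0.0139 with each probe as its own feature). Their average did not pass in Kc (0.32 ± 0.10, adjusted p = 0.0706). The zinc finger gene cbt was lower in Kc (-1.17 ± 0.19, adjusted p = 0.00214) and Pvr, the receptor for PDGF- and VEGF-like ligands, was higher (0.29 ± 0.07, adjusted p = 0.0236, lost without Kc array 2, 3, 4 or 5). The ligand gene Pvf1 passed in the difference alone (-0.81 ± 0.21, adjusted p = 0.0378), on 5 DmD8 and 4 Kc arrays. That call was lost without DmD8 array 1, 2, 3 or 4 or Kc array 3 or 4.

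Of 17 other bZIP factors, the protein class of Fos, Jun and Atf3, 10 were tested. In DmD8 2 were lower and 0 higher with limma, with 4 at an unadjusted p under 0.05, and in Kc 3 were higher and 0 lower, with 5 at that p. Of all features, 19.7% in DmD8 and 24.6% in Kc were at that p. Past the adjusted threshold, 4.16% of all features were lower and 3.08% higher in DmD8, and 7.1% higher and 4.81% lower in Kc. The antioxidant factor gene cnc was lower in DmD8 (-0.37 ± 0.08, adjusted p = 0.0147) and higher in Kc (0.58 ± 0.07, adjusted p = 0.000363), with a difference of -0.95 ± 0.11 (adjusted p = 0.000271). Its DmD8 call was lost without DmD8 array 1, 4 or 5. The clock genes vri (2.28 ± 0.11) and Pdp1 (0.85 ± 0.10) were higher in Kc (adjusted p = 4.42e-07 and 0.0003). In DmD8 vri stood at -0.54 ± 0.13 (adjusted p = 0.0225, lost without DmD8 array 2, 3, 4 or 5) and Pdp1 at -0.10 ± 0.11. In all 36 assignments of the swaps the listed calls that held were POSH, Mkp3, Keap1 and GstD1 in DmD8, and wnd, Traf6, raw, Mkp3, cbt, cnc, vri and Pdp1 in Kc. In each dye orientation alone, the listed calls that passed in both were Mkp3 and GstD1 in DmD8, and Traf6, Mkp3, cbt, Keap1, cnc, vri and Pdp1 in Kc. Of the 60 tested genes of the 4 lists, 5 (raw, Mekk1, Keap1, cnc and vri) shared with kay and Gadd45 the combination of a fall in DmD8 and a rise in Kc. That combination was found in 0.633% of all features. Of raw, Mekk1, Keap1, cnc, vri, kay and Gadd45, none kept both calls in all 36 assignments of the swaps. The highest adjusted p in DmD8 was 0.2 for raw, 0.373 for Mekk1, 0.112 for cnc and 0.112 for vri. In Kc it was 0.393 for Mekk1, 0.0518 for Keap1, 0.229 for kay and 0.0842 for Gadd45.

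**Figure D3:**
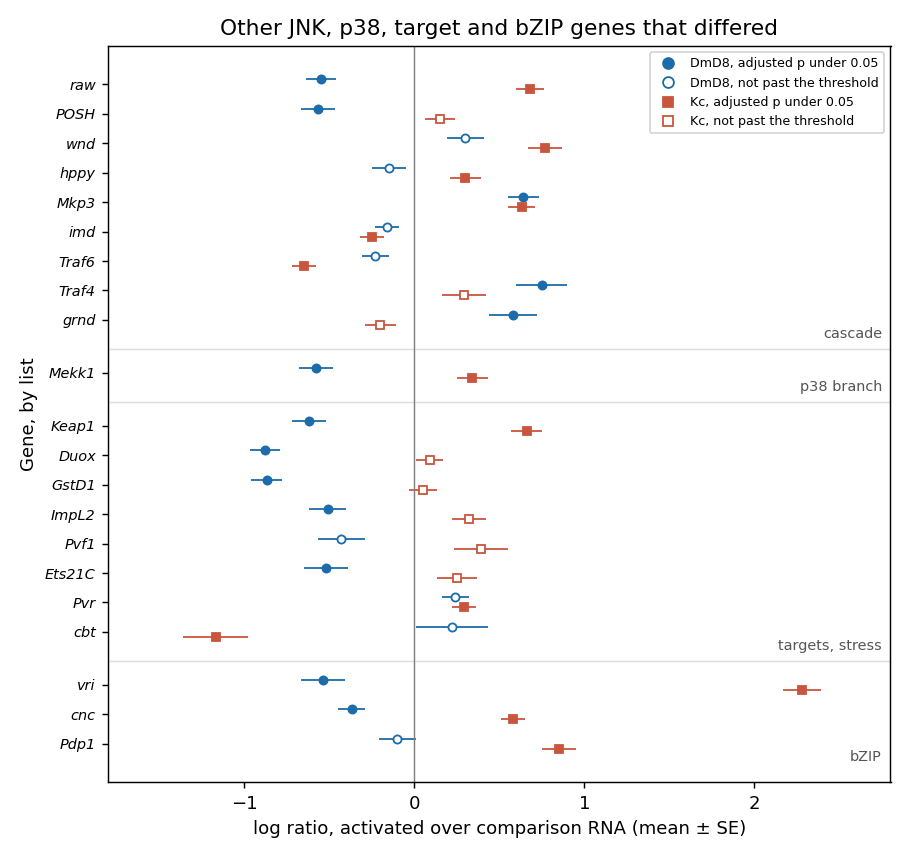
Mean log ratio ± SE (horizontal axis, activated over comparison RNA) of the 21 listed genes past the threshold in DmD8, Kc or the difference, in rows grouped by list. Blue circles are DmD8 (n = 5 arrays, fewer for grnd) and red squares Kc (n = 6, fewer for Pvf1), and filled symbols passed the threshold in that line. For raw, Mekk1, Keap1, cnc and vri the filled symbols lie on opposite sides of 0.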

How the data were processed

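For each probe and array the authors deposited a log ratio, taken here as log2, made from spots quantified with Dapple on FlyChip long-oligonucleotide arrays, per the labels. Not given in the sources used here: background correction, normalization, handling of dye swaps and log base. Base 2 was taken from the range of the values (-3.35 to 6.51). A natural log is possible too, so no folds are given. Array medians differed from 0 and were kept.

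Probes were named from the platform annotation (12658 with 1 gene symbol, 96 with several, 4504 unnamed), and probes of 1 gene were averaged. A feature entered the test with at least 3 values and both dye orientations in each line, which left 12952. The model, run in limma 3.58.1 (R 4.3.3) on 11 arrays, had for each line its mean and a dye term, and was tested on simulated data. Alternatives were turned swaps, no dye term, no filter, robust eBayes, median centring, 1 dye orientation, each line alone, a replicate block, single probes, arrays left out and averaged swaps. No column was left unassigned. The members and lists were chosen with earlier results of these data known. Named genes are the 9 members, the listed genes past the threshold, and for kay, Gadd45 and puc the 3 genes with the most similar ratios. The number of arrays limits the precision. Figures used matplotlib 3.10.9.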

Additional observations from a re-analysis of the deposited data

Results flagged for a closer look

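The test of the difference between the lines marked 4 members, each lower in DmD8 than in Kc. DmD8 minus Kc was -1.54 for Gadd45, -1.15 for kay, -0.79 for Atf3 and -0.68 for puc. The DmD8 log ratio was -0.93 for Gadd45, -0.73 for kay, -0.09 for Atf3 and 0.08 for puc, and the Kc log ratio was 0.62, 0.43, 0.70 and 0.76. No single array of a member passed Dixon's 95% critical value. The nearest were Gadd45 on DmD8 array 4 (-0.33) and bsk on DmD8 array 1 (0.35), each with a gap to the next array of 0.68 of the range.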

How the results depend on the processing

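The number of features past the threshold was 938 in DmD8, 1542 in Kc and 1415 in the difference. With the sign of the swaps turned it was 2211, 2592 and 0 with limma, where 752 features had an unadjusted p under 0.05 in the difference. Without a dye term it was 456, 655 and 505, and in all 36 assignments of the swaps 172, 196 and 135. On arrays with activated RNA in Cy5 it was 193 in the difference, and on the swaps 1002 in Kc and 225 in the difference. Without Kc arrays 2 and 5 it was 899 in Kc and 871 in the difference, and in DmD8 fitted alone 552. Leaving out 1 array gave 406 to 913 in DmD8, 941 to 1485 in Kc and 765 to 1268 in the difference. Centring each array on its median moved the share of higher calls to 54.7% in DmD8 and 56% in the difference, against 42.5% and 40.4% as deposited. The replicate numbers of the titles do not pair the lines (the correlations of deviations for the same number lay between -0.325 and 0.197), and with a replicate block the difference had 513 features past the threshold, with the same 4 members among them.

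The count of members was 2 in DmD8, 5 in Kc and 4 in the difference. It was 1 in DmD8 on the swaps alone. With the swaps turned it was again 2 in DmD8, but these were hep and msn in place of kay and Gadd45. In Kc it was 1 with the swaps turned, and this was hep, which was not called before. Without a dye term it was 3 in Kc. On arrays with activated RNA in Cy5 it was also 3 in Kc, namely puc, Atf3 and hep, of which hep was lower. In Kc it was 2 without Kc arrays 2 and 5, and 2 in all 36 assignments. In the difference it was 0 with the swaps turned, 1 on arrays with activated RNA in Cy5, 2 on the swaps and 2 in all 36 assignments. Leaving out 1 array gave 3 to 5 in Kc and 4 to 5 in the difference.

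Turning the swaps changed the sign of these values, which were called before turning except for hep and Pvf1 in DmD8, called only after it. In DmD8 they became -0.37 for hep, -0.27 for Traf4, -0.78 for grnd, 0.33 for raw, -0.08 for Mkp3, 0.47 for Mekk1, 0.48 for Pvf1 and 0.58 for Duox. In Kc they became -0.26 for kay, -0.04 for puc, -0.26 for Gadd45, -0.13 for egr, -0.04 for Atf3, 0.02 for Traf6, -0.10 for hppy, 0.01 for imd, -0.01 for Mkp3, -0.13 for Pvr, -0.21 for Keap1, -0.20 for cnc, -0.06 for vri and -0.08 for Pdp1. In the difference they became 0.12 for kay, -0.30 for grnd, 0.34 for Mekk1, 0.11 for Ets21C, 0.61 for Pvf1, 0.08 for ImpL2 and 0.29 for Duox. Other reversals were grnd in DmD8 with Cy5-labelled activated RNA alone (-0.20) and 1 probe of ImpL2 taken alone (0.16 in DmD8, 0.11 in the difference). The cause was not tested. Sign changes of values that passed neither way are not counted. Apart from the turned swaps, 536 of 567 member values stayed on the same side of the threshold, and 29 lost and 2 gained a call. Many values that stayed were never called, such as those of bsk and slpr, so this share does not describe how firm the calls were. With the turned swaps counted, the Kc call stayed in 10 of 22 alternatives for egr and 14 of 22 for kay. It stayed in 18 of 22 for Gadd45 and in 21 of 22 each for puc and Atf3.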
